A study of Rattus norvegicus with 6 samples.

Results

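The pancreatic enzymes that digest dietary fat were followed here through 6 genes: the lipase Pnlip, its relatives Pnliprp1 and Pnliprp2, the colipase Clps, the carboxyl ester lipase Cel and the phospholipase Pla2g1b. The members were chosen by name, as every probe set that the platform annotation gives to 1 of these genes alone, and each gene was read by 1 probe set, so that there were 6 probe sets of 15866 on the array. Gene expression had been measured in the pancreas of 3 rats on an ethanol diet and of 3 rats on a control diet, and 3 arrays of each diet were labelled as replicates, in a study of chronic ethanol consumption. Both groups are described only by their diet, and the sources used here do not give strain, sex, age, ethanol dose, duration or the make-up of the diets. The RNA was that of whole pancreas, so less RNA per cell and fewer cells of a type cannot be told apart.

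Acinar cells of the pancreas make these proteins in bulk, store them in zymogen granules and release them into the duct on a meal. Pancreatic lipase splits dietary triglycerides in the gut lumen, where bile salts would sweep it off the fat droplet if colipase did not anchor it there. Carboxyl ester lipase, which needs bile salts, splits cholesteryl esters and many other esters, and it also joins fatty acids to ethanol, giving fatty acid ethyl esters that are toxic to acinar cells.

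The 6 probe sets ranked 22nd or higher in brightness on every array. With 16 others they were the 22 probe sets that read, on average, above the hybridisation control that was brightest on average. That control, a transcript added to each sample at a fixed amount, lay between 84518 and 93960. Intensities are given as deposited, on a linear scale on which each array's brightest probe set lay between 163449 and 171742. Both diet means of 5 members, all but Pnliprp1, stood at or above 80% of the lowest of these array maxima. A probe set so near the top may be saturated and then understates a change, and the deposited values hold no saturation flag. Together the members held 3.91%, 3.76% and 3.70% of the summed signal in ethanol replicates 1, 2 and 3, against 3.65%, 3.61% and 3.67% in control replicates 1, 2 and 3. The brightness of different probe sets does not rank the amounts of their transcripts.

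**Figure D1:**
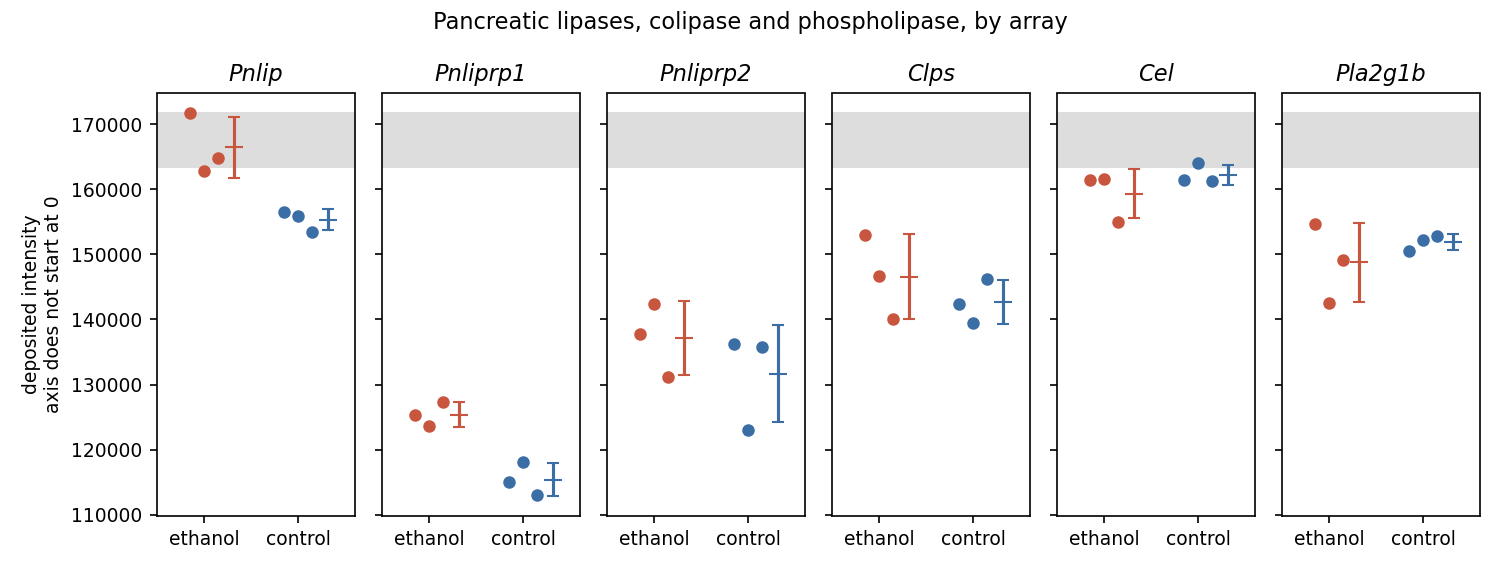
Deposited intensity (vertical axis, not starting at 0) of the 6 genes on the 3 ethanol arrays (red) and the 3 control arrays (blue), with each group's mean and SD beside the points; the grey band spans the array maxima, 163449 to 171742. Pnlip and Pnliprp1 were higher on all 3 ethanol arrays than on any control array, and the other 4 genes overlapped between diets.

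The promoters are shown for the 3 lipase genes that neighbour each other and for Cel, since Pnlip and Pnliprp1 were the members whose diets did not overlap and Cel the one that makes ethyl esters from ethanol. Sequences are RefSeq's on GRCr8, which held 5 of the 6 genes (not Clps), and run from 250 bases before to 50 bases after the gene start. Pnlip lies at chr1:267784360-267784659 (plus strand), Pnliprp1 at chr1:267853777-267854076 (plus strand), Pnliprp2 at chr1:267883656-267883955 (plus strand) and Cel at chr3:32288970-32289269 (minus strand). In RefSeq's annotation no other gene starts between Pnlip and Pnliprp2, with Pnliprp1 between them. Capitals mark, on either strand, the E-box CANNTG and the core TGGGA, the kinds of site that the acinar factor complex PTF1 binds as a pair, and GATAAG, a site of GATA factors.
Pnlip: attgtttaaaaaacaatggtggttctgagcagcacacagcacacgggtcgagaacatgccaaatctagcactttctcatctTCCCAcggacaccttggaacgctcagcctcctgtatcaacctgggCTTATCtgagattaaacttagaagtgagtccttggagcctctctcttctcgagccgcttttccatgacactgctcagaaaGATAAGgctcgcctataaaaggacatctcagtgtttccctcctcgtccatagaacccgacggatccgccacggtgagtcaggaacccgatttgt
Pnliprp1: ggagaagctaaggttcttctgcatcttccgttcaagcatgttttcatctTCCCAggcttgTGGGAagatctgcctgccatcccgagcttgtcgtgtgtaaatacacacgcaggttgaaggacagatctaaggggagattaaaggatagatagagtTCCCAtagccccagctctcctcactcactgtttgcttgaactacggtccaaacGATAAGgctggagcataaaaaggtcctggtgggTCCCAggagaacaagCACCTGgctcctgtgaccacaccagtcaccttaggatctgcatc
Pnliprp2: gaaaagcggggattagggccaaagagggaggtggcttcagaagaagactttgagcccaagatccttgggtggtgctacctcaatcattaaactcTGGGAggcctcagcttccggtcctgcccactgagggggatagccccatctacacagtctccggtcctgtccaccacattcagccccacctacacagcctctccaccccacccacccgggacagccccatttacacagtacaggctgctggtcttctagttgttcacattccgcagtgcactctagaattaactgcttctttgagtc
Cel: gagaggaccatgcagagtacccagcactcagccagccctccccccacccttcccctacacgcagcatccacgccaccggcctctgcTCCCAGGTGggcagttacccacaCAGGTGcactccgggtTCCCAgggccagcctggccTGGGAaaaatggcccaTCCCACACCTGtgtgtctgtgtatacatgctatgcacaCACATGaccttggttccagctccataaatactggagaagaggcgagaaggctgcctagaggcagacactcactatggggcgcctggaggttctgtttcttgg
The 5 promoters differed in these motifs, which were chosen after the sequences had been seen. TGGGA was present in 5 of 5, against 60.5% of 33469 rat promoters of this length, and CANNTG in 3 of 5 (Pnliprp1, Cel and Pla2g1b), against 72.1%. Both lay with starts at most 25 bases apart and without overlap in Pnliprp1 and Cel, against 14.5% of promoters. GATAAG was present in Pnlip, Pnliprp1 and Pla2g1b, against 7.05%, and the match nearest the gene start began 44 bases before it in Pnlip and 42 bases before it in Pnliprp1. These are matches of letters and show no binding.

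Pnlip, the main triglyceride lipase, was brighter on every array of ethanol-fed rats. It read 171742, 162774 and 164855 on ethanol replicates 1, 2 and 3, against 156547, 155891 and 153438 on control replicates 1, 2 and 3. It was the brightest of all probe sets on ethanol replicates 1 and 3 and the 4th on ethanol replicate 2, while on the control arrays it was 6th, 6th and 8th. The means were 166457 ± 4694 on the ethanol diet and 155292 ± 1639 on the control diet (SD, n = 3 each). The diets did not overlap, but the log2 change of 0.10 (SE 0.13, 95% interval -0.19 to 0.39) did not pass limma's test over all probe sets (adjusted p = 0.708). An exact permutation test of the 3 arrays against 3 gave p = 0.1 (two-sided), the smallest it can give.

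Clps encodes colipase, the cofactor without which pancreatic lipase fails on bile-coated fat, and its diets overlapped. It read 153016, 146681 and 140016 on the ethanol arrays, against 142298, 139447 and 146194 on the control arrays. The lowest and highest ethanol arrays enclosed 2 of the 3 control arrays. The log2 change was 0.04 (SE 0.13, limma adjusted p = 0.898), with a 95% interval from -0.26 to 0.34.

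Pnliprp1 and Pnliprp2 are close relatives of pancreatic lipase. Pnliprp1 has little activity on the usual triglyceride substrates, and Pnliprp2 also splits phospholipids and galactolipids. Pnliprp1 read 125250, 123583 and 127305 on the ethanol arrays, against 115018, 118165 and 113022 on the control arrays. All 3 ethanol arrays lay above all 3 controls, and this member alone read below 80% of the lowest array maximum on every array. Its means were 125379 ± 1864 and 115402 ± 2593 on the ethanol and control diets (SD, n = 3 each). The log2 change of 0.12 (SE 0.13, 95% interval -0.17 to 0.41) did not pass (limma adjusted p = 0.644; exact permutation p = 0.1, two-sided). Pnliprp2 read 137683, 142441 and 131150 on the ethanol arrays, against 136284, 123070 and 135717 on the control arrays, and its diets overlapped. Control replicate 2 was its lowest array. Its log2 change was 0.06 (SE 0.13, limma adjusted p = 0.844), and without control replicate 2 it was 0.01.

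Cel, the member that uses ethanol as a substrate, read 161407, 161615 and 154908 on the ethanol arrays, against 161405, 163980 and 161192 on the control arrays. The diets overlapped, with ethanol replicate 3 the lowest of the 6. Its log2 change was -0.03 (SE 0.13, limma adjusted p = 0.934), with a 95% interval from -0.32 to 0.27. Its place among all probe sets was 7th, 5th and 6th on the ethanol arrays, against 3rd, 2nd and 3rd on the control arrays. At 94.0% to 97.3% of the array maximum on the ethanol diet and 96.6% to 98.7% on the control diet, little room was left above it.

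Pla2g1b encodes the secreted phospholipase A2 that trypsin activates in the gut. It read 154638, 142492 and 149164 on the ethanol arrays, against 150462, 152157 and 152860 on the control arrays. The ethanol arrays lay on both sides of the controls and spread more widely, with an SD of 6083 on the ethanol diet and 1233 on the control diet. The log2 change was -0.03 (SE 0.13, limma adjusted p = 0.924), and without ethanol replicate 2 it was 0.00051.

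None of the 6 passed limma's test over all 9522 probe sets tested, where 0.347% were called at an adjusted p under 0.05, and none had an unadjusted p under 0.05, against 18.3% of all tested. On 2 of the 6 all ethanol arrays lay above all control arrays, which held for 11.1% of tested probe sets, and on 0 of the 6 they lay below, against 14.4%. The members had a median log2 change of 0.05, against -0.000067 over all tested probe sets. Their 95% intervals reached from 0.798-fold to 1.33-fold, so larger changes of the measured intensity lay outside them, though not larger changes of transcript if the signal was saturated. The members' probe sets varied far less between arrays than most: their own within-diet SD of log2 values was 0.026 to 0.072, against a median of 0.22 over all tested, and limma's pooling raised it to 0.16 for each. With a prior spread that follows brightness, the SE fell to 0.044 for Pnlip and to 0.046 for Pnliprp1. Their unadjusted limma p was then 0.043 and 0.0251, and neither passed after adjustment (adjusted p of 0.240 and 0.184). The 18.3% above belongs to the fit with 1 prior spread and is not the share for this setting.

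**Figure D2:**
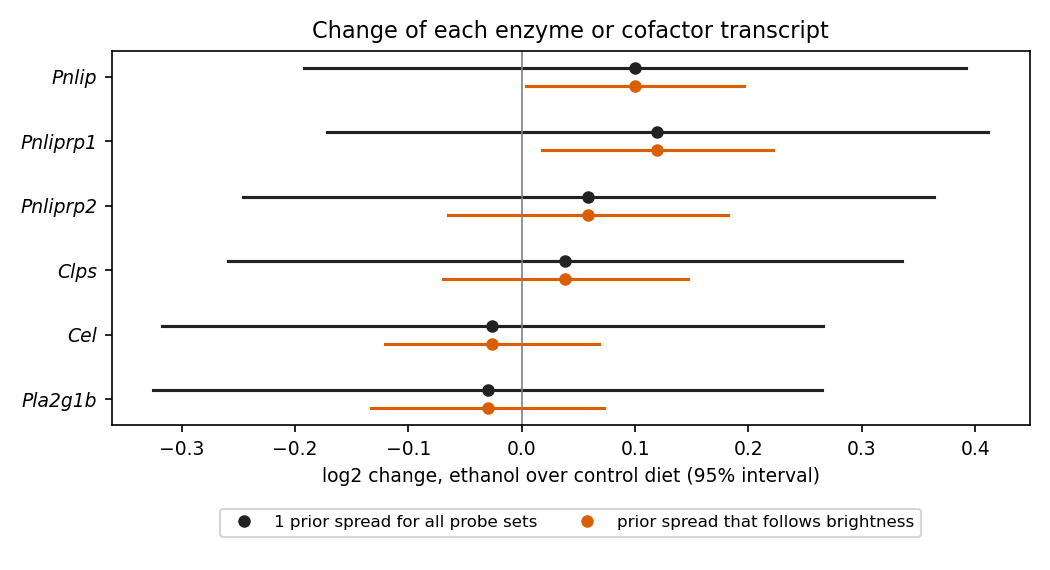
Log2 change, ethanol over control diet, with its 95% interval from limma, for each gene (rows), with 1 prior spread for all probe sets (black) and with a prior spread that follows brightness (orange). With the second, the intervals of Pnlip (0.0038 to 0.20) and Pnliprp1 (0.018 to 0.22) lay above 0, and those of the other 4 genes included it. The intervals are not adjusted for the number of probe sets, and neither of these genes passed after adjustment.

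Among all probe sets, the ranks of Pnlip and Cel did not overlap between diets, and those of the other 4 members did. How many of all tested probe sets had ranks that did not overlap was not counted, so these ranks are only a description. The values of Cel overlapped. The 16 other probe sets above the hybridisation control had a median log2 change of 0.01, from -0.10 for the elastase Cela1 to 0.20 for the trypsinogen Prss2. Their mean log2 value was 17.10 ± 0.025 on the ethanol diet and 17.08 ± 0.017 on the control diet (SD, n = 3 each; two-sided exact permutation p = 0.3). Set against this mean on the same array, a comparison chosen after the values were seen, Pnlip was higher by 0.08 and Pnliprp1 by 0.10 in ethanol-fed rats. Cel and Pla2g1b were each at -0.05 on that scale. On these 4 the diets did not overlap, against 9.72% of tested probe sets that did not overlap with the ethanol arrays above and 15.7% with them below, and each exact permutation p was 0.1. Pnliprp2 (0.04) and Clps (0.02) overlapped between diets. None of the 6 passed limma's test on this scale. The log2 difference of Pnlip over Cel within an array was 0.09, 0.01 and 0.09 on the ethanol arrays, against -0.04, -0.07 and -0.07 on the control arrays. It shows unequal readings of the pair and not which of them moved. The pair was picked among the members after the values were seen.

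**Figure D3:**
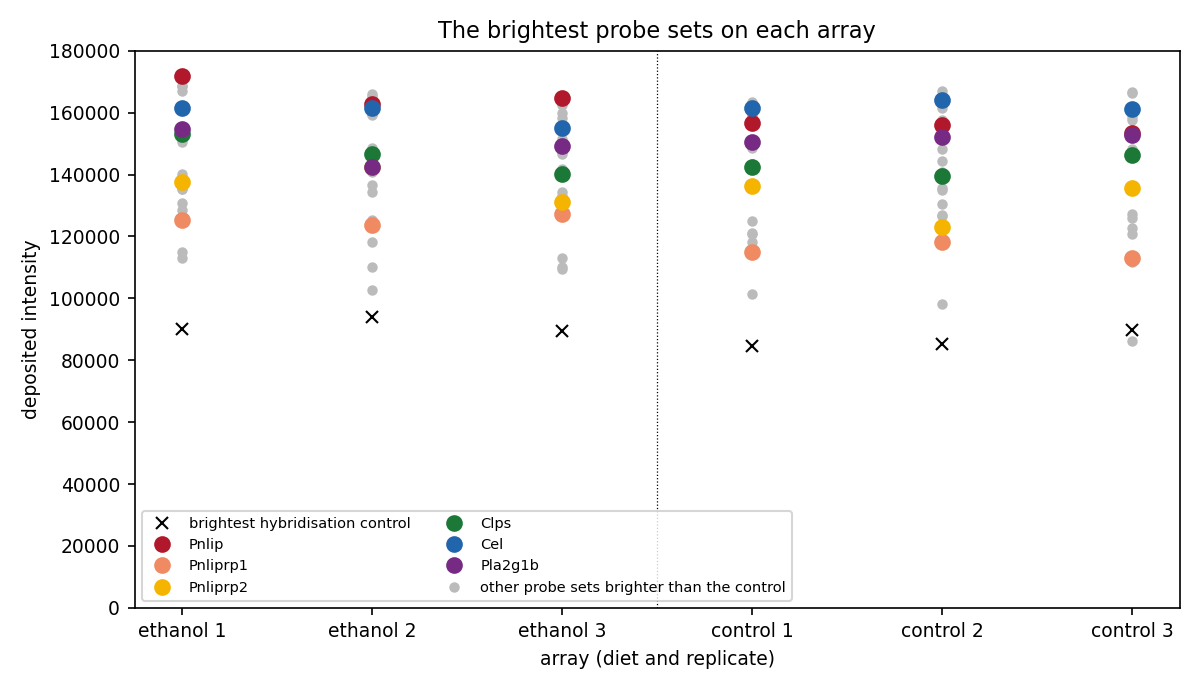
Deposited intensity of the 22 probe sets that were brightest on average and of the hybridisation control that was brightest on average (cross) on each array; coloured points are the 6 genes and grey points the other 16 probe sets. Pnlip stood above Cel on the 3 ethanol arrays and below it on the 3 control arrays, a pair picked after the values were seen.

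No probe set among these 22 had a log2 change of 0.25 or more in size, whereas 43.5% of all tested probe sets did. This is not a like comparison, since the 22 were chosen by their mean over both diets. A bright probe set that fell on the ethanol diet could thus drop out of them. The median within-diet SD of log2 values was 0.041 for the 22, against 0.22 over all tested. Below the 22, and picked after its values were seen, the secreted lectin Reg1a read 27459, 81624 and 18666 on the ethanol arrays. On the control arrays it read 115889, 124375 and 107752. Its control readings were near those of Pnliprp1, and its ethanol readings lay below them and spread widely. Its log2 change was -1.74 (SE 0.47, limma adjusted p = 0.134). The amylase Amy2a3 (0.07, SE 0.14) and the acinar marker Cuzd1 (0.19, SE 0.16) also lay below the 22 and were brighter on average than Reg1a. Both overlapped between diets.

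**Figure D4:**
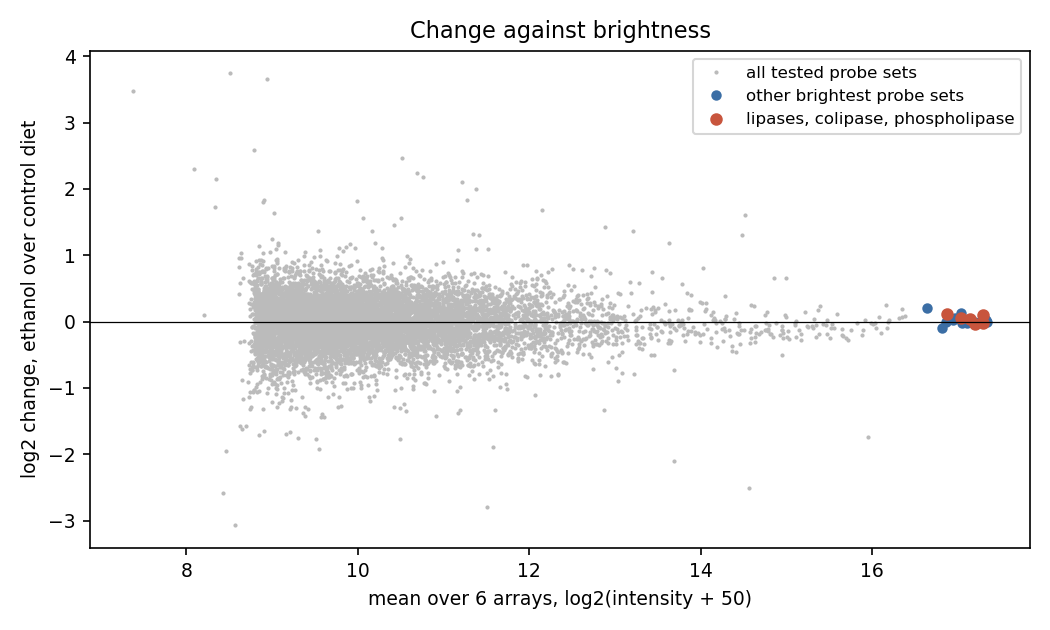
Log2 change, ethanol over control diet, against the mean log2(intensity + 50) over the 6 arrays for all 9522 tested probe sets (grey), the 6 genes (red) and the 16 other brightest probe sets (blue). These 22 probe sets lay within 0.20 of 0.

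The arrays correlated with r from 0.925 to 0.944 within a diet and from 0.913 to 0.929 between diets (across probe sets, none of them an independent replicate). The 3' over 5' signal, which rises as RNA breaks down, was 1.67 ± 0.12 for beta-actin on the ethanol diet and 1.80 ± 0.31 on the control diet (SD, n = 3; two-sided exact permutation p = 0.6). Acinar identity was plain, since 14 acinar markers outside the members were measured, and their summed intensity ran from 1345738 to 1401541 on the ethanol arrays and from 1328078 to 1333061 on the control arrays. This sum, like Pnlip and Pnliprp1, was higher on every ethanol array than on any control array. Its part in their values was not tested. Also higher on every ethanol array were the sums of the erythroid markers (4 measured of 5 on the array, 25617 to 33312 against 15433 to 22883) and the adipocyte markers (6 of 9, 10667 to 11673 against 6393 to 8531). Of the erythroid list, Ahsp lay below the filter and 0 genes were called by limma. An unadjusted limma p under 0.05 was found for 3 of the 4, all higher and without overlap between diets. Without Lpl, the other 5 adipocyte markers summed to 4608 to 6551 on the ethanol arrays and 4138 to 4252 on the control arrays. The adipocyte list had a median log2 change of 0.57, with 5 of 6 genes higher and 0 called by limma. An unadjusted limma p under 0.05 was found for 4 higher and 0 lower, against 18.3% of all tested probe sets in either direction. These were Lpl, Pck1 (0.73, SE 0.18), Cfd (0.69, SE 0.21) and Slc2a4 (0.45, SE 0.17). On the last 3 all ethanol arrays lay above all control arrays, which held for 11.1% of tested probe sets. Fabp4, the brightest after Lpl and the 1 lower gene, was at -0.13 (SE 0.24). Of the adipocyte list, Plin1, Lep and Lipe lay below the intensity filter, with highest readings of 217, 314 and 467 on the ethanol arrays and 259, 202 and 439 on the control arrays. Islet, duct, stellate, endothelial and immune lists had median log2 changes from -0.12 to 0.24, with no gene called by limma. All of these lists held genes of both directions, with 3 of 6 higher for islet and 3 of 5 higher for immune. Log2 changes of their brightest genes were -0.09 and -0.17 for the insulins Ins2 and Ins1, -0.27 for Muc1 and 0.45 for Car2 of duct cells, and -0.05 and -0.14 for the matrix genes Col3a1 and Dcn. They were 0.41 and 0.24 for the endothelial Egfl7 (-0.14 on its other probe set) and Esam, 0.02 and 0.39 for the immune Lyz2 and Aif1, and 0.80 and 0.64 for the globins Hbb and Hba-a3. No gene of a list of B cell markers was measured.

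In a list of intracellular lipases, phospholipases and related proteins, 8 of 9 measured genes had a negative log2 change (median -0.53). Of the 9, 1 was called lower, against 0.347% of all tested probe sets called in either direction. Among the 8, Pla2g6 was at -0.015 (SE 0.20), with 0.25 on its other probe set. Mgll was at -0.63 (SE 0.39), with -0.068 on its other probe set. Ddhd2, an intracellular phospholipase that also splits triglycerides, fell: it read 439, 581 and 518 on the ethanol arrays, against 1208, 1393 and 1356 on the control arrays (log2 change -1.29, SE 0.15, limma adjusted p = 0.0333). The call was lost without the intensity filter (adjusted p = 0.154), with a replicate block (0.0924) and without any 1 of control replicates 1, 2 and 3 or ethanol replicates 2 and 3 (0.0557 to 0.135). At an unadjusted p under 0.05 stood 4 of the 9, all lower, against 18.3% of all tested probe sets in either direction. Among them Plaa, a ubiquitin-binding protein named for activating phospholipase A2, was at 578, 529 and 585 on the ethanol arrays and 990, 949 and 960 on the control arrays (-0.73, SE 0.13, limma adjusted p = 0.0691). Pnpla7, a lysophospholipase, was at 1344, 1357 and 1459, against 2004, 2066 and 2010 (-0.53, SE 0.13, limma adjusted p = 0.110). The diets did not overlap on 6 of the 9, all lower, against 14.4% of tested probe sets. The brightest besides Pnpla7 were the acyl-protein thioesterases Lypla2 (-0.18, SE 0.14) and Lypla1 (0.14, SE 0.17). The Lypla1 value was 0.0026 without ethanol replicate 3 and 0.27 without ethanol replicate 2.

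A list of extracellular and lysosomal lipases, phospholipases and related enzymes split in direction, with 8 of 13 measured genes higher and 5 lower. Of the 13, 0 were called by limma (unadjusted p under 0.05 for 1 higher and 1 lower). Lpl, which frees fatty acids from blood lipoproteins and is abundant in fat tissue, was at 4116, 5981 and 7065 on the ethanol arrays, against 3533, 2255 and 4353 on the control arrays. The diets overlapped, and the log2 change was 0.77 (SE 0.28, limma adjusted p = 0.209), or 0.50 without control replicate 2. Asah1, the acid ceramidase of lysosomes, was at -0.60 (SE 0.19, limma adjusted p = 0.172), and its other probe set at -0.41. The secreted phospholipase Pla2g5 was at 0.48 (SE 0.21), the acid sphingomyelinase Smpd1 at -0.25 (SE 0.20) and the cholesterol acyltransferase Lcat at -0.97 (SE 0.56). Single arrays moved the last 2: Smpd1 was at -0.055 without ethanol replicate 1 and -0.40 without ethanol replicate 2, and Lcat was at -0.58 without ethanol replicate 1, -0.56 without control replicate 2 and -1.61 without control replicate 3. The list had a median of 0.16.

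Carboxylesterases can also join fatty acids to ethanol, and of 16 listed only 5 were found on the array by symbol. Of these 5, Ces1c alone passed the intensity filter. It read 2013, 1461 and 1601 on the ethanol arrays against 1070, 1279 and 1429 on the control arrays (log2 change 0.41, SE 0.18, limma adjusted p = 0.272). All ethanol arrays lay above all control arrays, as on 11.1% of tested probe sets, but the change did not pass. Ces1d, Ces1e, Ces2c and Aadac lay below the filter, with no reading above 491 on the ethanol arrays or 401 on the control arrays.

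Of the other digestive enzymes 0 of 12 measured genes were called by limma, with a median of 0.02 on the log2 scale (unadjusted p under 0.05 for 0 higher and 1 lower). The carboxypeptidase Cpa1 (0.02) and the chymotrypsins Ctrc (0.03) and Ctrb1 (0.04) were the brightest, with the same doubt about saturation. The members of smallest p were Amy1 (-0.90, SE 0.15, limma adjusted p = 0.0557), an amylase, Dnase1 (0.23) and Prss2 (0.20). Amy2a3, a closely similar amylase gene, was at 0.07 (SE 0.14), and how far the probe sets read each other's transcripts was not tested.

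Regulators of acinar enzyme genes did not pass either, with 0 of 15 called by limma and an unadjusted p under 0.05 for 1 higher and 2 lower (median -0.09). Ptf1a, the acinar factor that gives the PTF1 complex its name, was at 12259, 12386 and 14084 on the ethanol arrays, against 9361, 8759 and 10111 on the control arrays. The diets did not overlap (log2 change 0.45, SE 0.14, limma adjusted p = 0.165). Xbp1, which drives the secretory machinery, was at 23714, 26006 and 30021, against 38718, 38430 and 35220 (-0.50, SE 0.15, limma adjusted p = 0.153). The forkhead factor Foxa3 was at -0.61 (SE 0.19, limma adjusted p = 0.168) and the acinar factor Bhlha15 at -0.06 (SE 0.18). The GATA factors, whose site was searched in the promoters, read -0.26 (SE 0.16) for Gata4, with 0.06 on its other probe set, and 0.27 (SE 0.16) for Gata6.

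**Figure D5:**
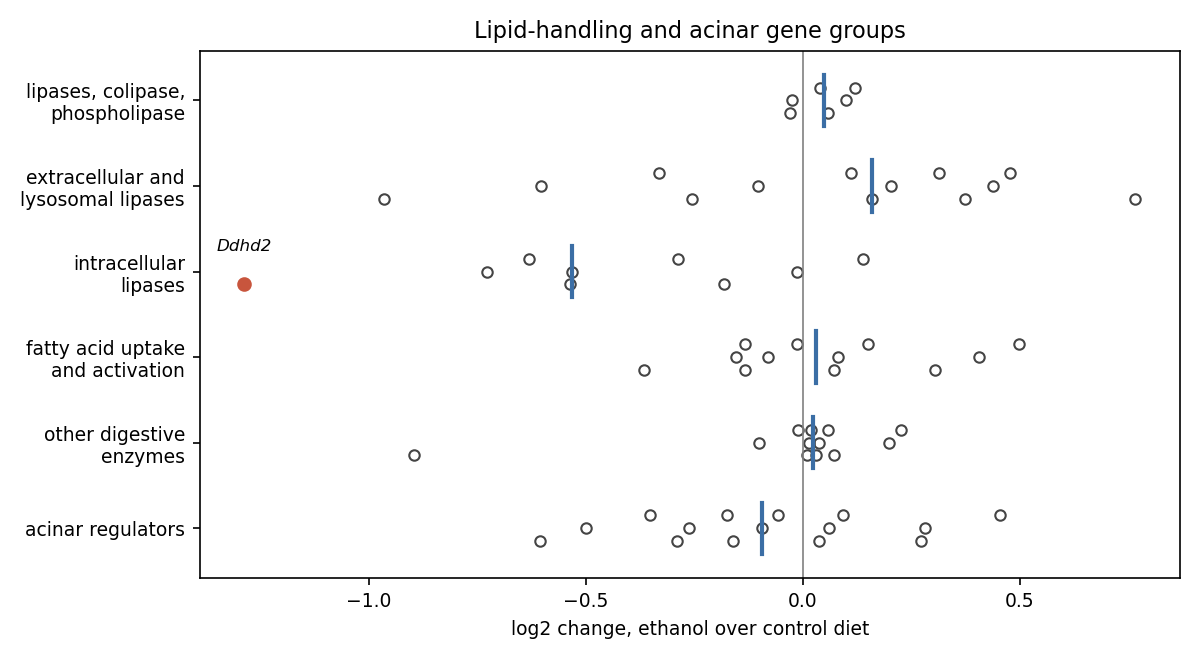
Log2 change, ethanol over control diet, of each measured gene in the 6 groups (rows); filled points passed limma's test at an adjusted p under 0.05 and blue lines are group medians. Ddhd2 (-1.29) was the 1 gene that passed. The median of the list of intracellular lipases and related proteins was -0.53, against 0.05 for the lipases, colipase and phospholipase of the pancreatic juice. This is not a like comparison, since the latter read far brighter and may be saturated.

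Pnliprp1, the member with all values below 80% of the lowest array maximum, was compared with the tested probe sets of other genes that carry 1 symbol. The measure was the root mean square difference of log2 values, each centred on its own mean over the 6 arrays. The nearest were Pomp, a proteasome assembly factor, at 0.025, Gp2, the main protein of the zymogen granule membrane, at 0.025, and Sf3a3, a splicing factor, at 0.028. Gp2 read 140291, 140818 and 141696 on the ethanol arrays, against 124928, 135547 and 126074 on the control arrays (log2 change 0.13, SE 0.13, limma adjusted p = 0.621). Pomp (log2 change 0.10) and Sf3a3 (0.16) were far dimmer, with means of 5516 and 714 over the 6 arrays. Some probe sets are nearest in any such search, and shared control was not tested.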

How the data were processed

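Total RNA of rat pancreas was turned into biotin-labelled cRNA for single-colour arrays, per the labels' protocols. The authors deposited 1 intensity per probe set and array, as whole numbers on a linear scale; the sources used here do not give the scanner, software or normalization. From the values, background had been subtracted and the array medians matched (they differed by at most 0.0024 on the log2 scale), while the maxima ran from 163449 to 171742. No normalization was added, and quantile normalization was an alternative. Of 15923 probe sets, 57 controls were left out. Gene symbols are those of the platform annotation (12783 probe sets with 1 symbol, 312 with several, 2771 with none), and 12748 of those with 1 were found in RefSeq by gene ID, with 0 symbols changed.

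Values below 0 were set to 0, 50 was added and the log2 taken, so fold changes understate those of dim probe sets. The 9522 probe sets whose mean reached the 40th percentile entered the test with limma 3.58.1 in R 4.3.3 (2 groups, no block), with Benjamini-Hochberg adjustment over all of them and a threshold of 0.05. Genes of a list were read on the tested probe set of highest mean. The number of arrays limits the precision: the median SE was 0.18. The series' design text gives 3 rats for each diet, and the sample labels do not say which rat each array holds, so p-values measure the spread between these arrays. Replicate numbers were not used to pair the arrays in the main fit. Deviations of same-numbered arrays correlated at -0.037, 0.024 and -0.15, and those of differently numbered arrays at -0.073 to 0.11. Deviations from a mean of 3 arrays depend on each other, so these values cannot exclude a pairing. Members, lists and motifs were chosen with earlier results of these data known. Named list genes are those called, the 3 brightest and the 3 of smallest p, and the 2 brightest of each marker list; others were chosen after their values were seen. The procedure was tested on simulated data. Promoter matches used Python 3.11.15. Alternatives were other constants, normalizations, filters, a variance trend, a replicate block and each array left out.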

Additional observations from a re-analysis of the deposited data

How the results depend on the processing

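Over 96 recomputed values, the log2 changes of the 6 lipid-digesting genes kept their sign and stayed uncalled in 95. The exception was Pla2g1b without ethanol replicate 2 (0.00051), and leaving out each array in turn its change ran from -0.058 to 0.00051. The log2 change ran from 0.08 to 0.12 for Pnlip, from 0.10 to 0.14 for Pnliprp1, from 0.01 to 0.09 for Pnliprp2, from 0.0070 to 0.071 for Clps and from -0.054 to -0.0060 for Cel, over all alternatives. The lowest limma adjusted p of any of them was 0.184. As each gene had 1 probe set, averaging probe sets of a gene gave no other value. With the limit at 90% of the lowest array maximum, 3 of the 6 read near the top, and with 50% all 6.

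The count of probe sets called by limma over the whole table was 33 as reported. It was 11 with a constant of 20, 52 with 100, 0 with no filter (2263 had an unadjusted limma p under 0.05), 130 with a filter at the 60th percentile, 242 with a variance trend and 188 at an adjusted p under 0.10. With the replicate block it was 5, and no call on the 6 genes changed, while Ddhd2 lost its call. Leaving out control replicate 1, 2 or 3 gave 3, 4 or 2, and leaving out ethanol replicate 1, 2 or 3 gave 43, 10 or 2. A filter on the mean of log2 values, added after seeing the data, gave 39. The causes were not tested.

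Among 25 listed genes, 381 of 399 recomputed values kept sign and side of the threshold. Prss2 was at 0.29 with quantile normalization, against 0.20 as reported, and at 0.13 without control replicate 3. Signs turned for Cpa1 with quantile normalization (-0.0056) and against the other brightest probe sets (-0.0048), and for Bhlha15 without ethanol replicate 2 (0.038) or 3 (0.022), where leaving out single arrays gave -0.23 to 0.038. With a variance trend Plaa, Amy1, Xbp1 and Ptf1a passed (limma adjusted p of 0.0473, 0.00470, 0.0245 and 0.0416). With the filter at the 60th percentile Plaa and Amy1 passed, and Amy1 also with a constant of 100. Ddhd2 passed in 10 of its 17 settings (adjusted p from 0.00653 to 0.154).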

Other observations

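Genes that take up, bind and activate fatty acids did not pass, with 0 of 12 measured genes called by limma and a median log2 change of 0.03 (unadjusted p under 0.05 for 1 higher and 0 lower). Dbi, which binds acyl-CoA, read 3638, 4566 and 4709 on the ethanol arrays, against 2975, 3071 and 2993 on the control arrays (log2 change 0.50, SE 0.15, limma adjusted p = 0.159). Scp2, a sterol carrier protein, read 6271, 6858 and 6161, against 4919, 5318 and 5339 (0.31, SE 0.13, limma adjusted p = 0.273), with 0.16 on its other probe set. On both genes the ethanol arrays lay above the control arrays, as on 11.1% of tested probe sets. The fatty acid transporters Slc27a4 (0.08, SE 0.15) and Slc27a2 (0.41, SE 0.21) overlapped between diets.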
